A study of Mus musculus with 4 samples.

Results

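Among tumour cells outside the cell cycle, those with the most transcripts of Cst6, Osr1, Rbp2 and Cela1 were examined in mouse tumours grown from MC38 cells with or without the RNA-binding protein gene Hnrnpa2b1. These cells are called score-high cells here. A score-high cell was a tumour cell by its gate (Krt14, Sox9, Hmga2, Tnnt2, Tubb3, Crabp2 and Ankrd1 summing to at least 10 UMIs per 10000, with Ptprc below 0.5 per 10000), had mitosis genes below 20 per 10000, and stood in the top 15% of such cells by the summed level of the 4 score genes. The rule kept 1817 of 12107 non-cycling tumour cells, out of 43494 barcodes in the whole series. Of these score-high cells 1260 came from WT tumour 1, 502 from WT tumour 2, 19 from KO tumour 1 and 36 from KO tumour 2. The measured values of the 4 genes chose the cells, so their height in those cells is a description.

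MC38 is a colon adenocarcinoma line from C57BL/6 mice. The WT group held 2 tumours from MC38 cells with the gene intact and the KO group 2 tumours from MC38 cells with Hnrnpa2b1 knocked out, each grown under the skin of the left flank of C57BL/6J mice that were 8 weeks old at inoculation. All hosts carried an intact Hnrnpa2b1 gene as far as the labels state, and the labels do not give the edit, whether each line was 1 clone, or what tumours of the same number share. P-values between groups therefore measure the spread between these tumours.

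Cst6 encodes cystatin E/M, a secreted inhibitor of lysosomal cysteine proteases best known from skin. Osr1 encodes an odd-skipped zinc finger factor of the intermediate mesoderm and of embryonic connective tissue. Rbp2 encodes an intracellular retinol carrier that is abundant in absorptive cells of the small intestine, and Cela1 encodes a chymotrypsin-like elastase. Tnnt2, a further gene of the working name, encodes cardiac troponin T and was part of the tumour gate.

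The libraries held 114136609 to 153162562 UMIs, and pairs of libraries shared 23 to 43 cell barcodes, with 0 shared among score-high cells. Tumour cells of the KO tumours held more UMIs each than those of the WT tumours. The median UMI count of score-high cells was 11498, 12839, 30897 and 25957 in the order WT 1, WT 2, KO 1 and KO 2, against 11455, 11746, 37484 and 29156 in the remaining non-cycling tumour cells. Hnrnpa2b1 was detected in the KO tumours too. In all non-cycling tumour cells it stood at 516 and 499 CPM (a gene's UMIs summed over the cells and scaled to 1 fixed UMI total) in WT tumours 1 and 2 and at 359 and 314 CPM in KO tumours 1 and 2. That was a log2 fold change of -0.68 (standard error 0.12, edgeR adjusted p = 0.0289), and the call was lost when either KO tumour was left out (adjusted p = 0.105 without KO tumour 1 and 0.166 without KO tumour 2). Where the edit lies is not given, so these reads may lie outside it.

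The distribution of the score fell across the cut in each tumour, with no second peak above it. The cut lay at 4.15 UMIs per 10000, and 401 cells lay within 10% above it and 492 within 10% below it. The median score of non-cycling tumour cells was 2.52 and 1.82 per 10000 in WT tumours 1 and 2, against 1.38 and 1.37 per 10000 in KO tumours 1 and 2. Score-high cells carried a median of 7 score-gene UMIs in each WT tumour and of 15 and 13 in the KO tumours, and other cells 2, 2, 5 and 4. The score-high cells are therefore a range of a continuous score, and they are not given a cell state name of their own.

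**Figure D1:**
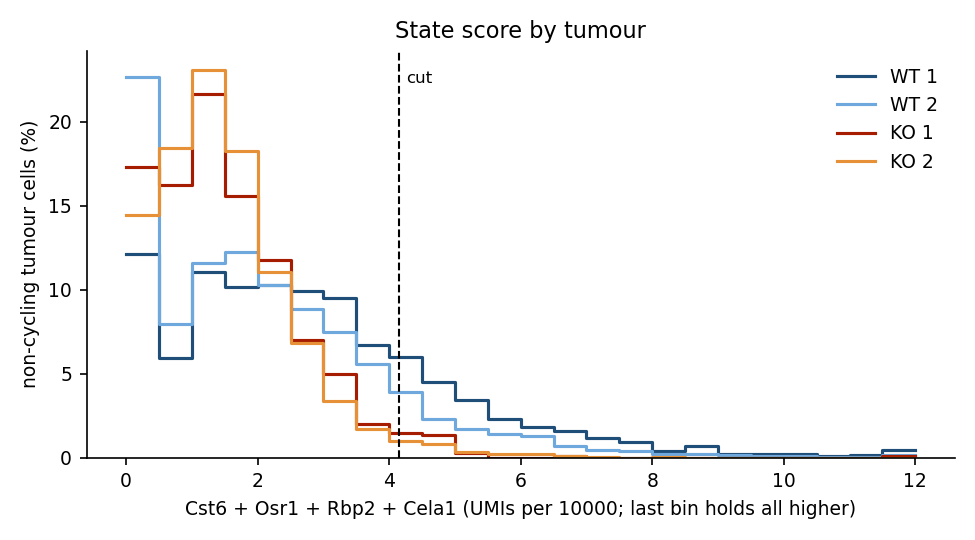
Share of non-cycling tumour cells (%) in bins of the summed level of Cst6, Osr1, Rbp2 and Cela1 (UMIs per 10000), 1 line per tumour, with the last bin holding all higher values. The lines fall across the dashed cut at 4.15 without a second peak above it, and more of the WT lines lies to its right.

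Score-high cells made up a larger share of non-cycling tumour cells in both WT tumours than in either KO tumour. The share was 22.3% (95% Wilson interval 21.2 to 23.4%) in WT tumour 1, 11.9% (10.98 to 12.94%) in WT tumour 2, 2.57% (1.65 to 3.98%) in KO tumour 1 and 2.39% (1.73 to 3.296%) in KO tumour 2. These intervals cover counting error only. The WT mean was 17.1% ± 7.32 (SD, n = 2) and the KO mean 2.48% ± 0.125 (SD, n = 2), a ratio of 6.89. The groups did not overlap, and the WT tumours differed from each other by more than the KO tumours did. An exact two-sided permutation test gave p = 0.333, the smallest that 2 against 2 tumours allow, and the lower share in KO tumours was already known when the rule was written.

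The ratio was smaller at equal depth per cell with a cut to match. When each cell was thinned to 5000 UMIs and cells with at least 3 score-gene UMIs were counted, the shares were 18.5% and 12.3% for WT and 5.61% and 5.17% for KO. The means were then 15.4% ± 4.39 and 5.39% ± 0.309 (SD, n = 2 each), and the ratio fell from 6.89 to 2.85. This left out 210, 404, 26 and 35 shallower cells in the order WT 1, WT 2, KO 1 and KO 2, so the depth, the cut and the cells all changed, and the part of each was not tested. Among cells of at least 5000 UMIs, unthinned, the ratio was 7.87. Of the score-high cells that were deep enough, 58.0% were chosen again after thinning. With the score cut at the top 10% the ratio was 11.1, and it was 8.10 with Cst6 left out of the score and 5.14 with Cela1 left out. Cells with the highest Scrublet doublet scores were marked, up to a rate set beforehand from the number of barcodes. The marked cells made up 9.76%, 7.77%, 5.26% and 5.56% of score-high cells and 10.5%, 7.61%, 5.56% and 5.45% of other cells in the same order. Scrublet's own call marked 0, 0, 0 and 1 score-high cells.

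**Figure D2:**
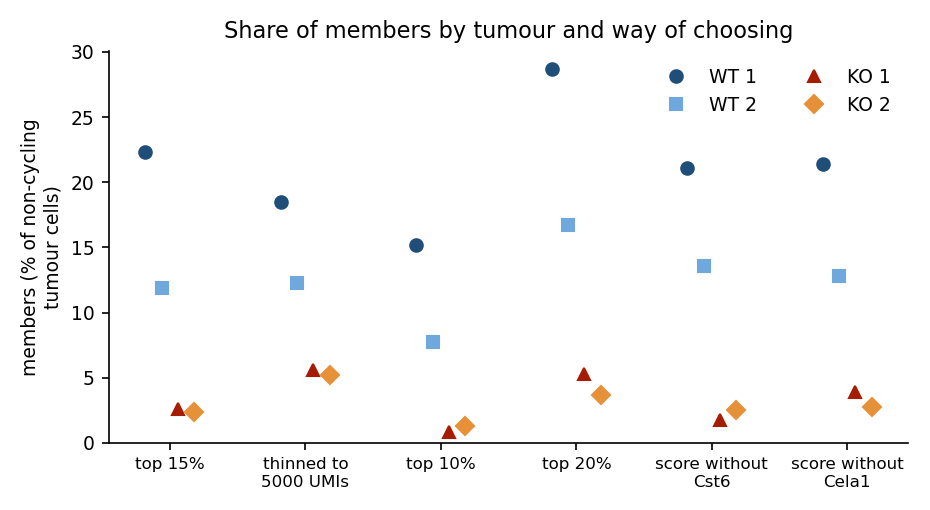
Score-high cells as a share of non-cycling tumour cells (%) in each tumour under 6 ways of choosing them, 1 point per tumour. Both WT points lie above both KO points under each way, and the distance is smaller after thinning to 5000 UMIs.

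Cst6 gave most of the score. It made up 53.9% of the score-gene UMIs of score-high cells, Rbp2 23.7%, Osr1 12.9% and Cela1 9.47%, and Cst6 alone was the largest of the 4 in 58.1% of the cells. All 4 genes were detected together in 19.9% of score-high cells and 3 of them in 43.4%, while 5.61% had UMIs of 1 gene only.

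Cst6 (chromosome 19, 5344705 to 5349574, minus strand, GRCm38) stood at 306 and 313 CPM in score-high cells of the WT tumours and at 362 and 328 CPM in the KO score-high cells. In the other non-cycling tumour cells it stood at 93.0, 75.9, 84.5 and 74.7 CPM. The cut was fixed and the score was made up mostly of Cst6 UMIs, so the levels in score-high cells are partly set by the choice. In KO tumour 1, 53 of the 192 Cst6 UMIs of score-high cells came from 1 cell. Rbp2 (chromosome 9, 98486115 to 98509781, plus strand) stood at 139, 136, 86.8 and 113 CPM in score-high cells, in the order WT 1, WT 2, KO 1 and KO 2, against 61.6, 58.8, 46.9 and 50.6 CPM in the others. It was lower in both KO tumours in either kind of cell.

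Osr1 (chromosome 12, 9570116 to 9581500, plus strand) stood at 76.9, 70.3, 83.0 and 50.3 CPM in score-high cells and at 29.5, 28.1, 17.7 and 15.1 CPM in the others. Among the others both KO tumours lay below both WT tumours, while the groups overlapped in score-high cells. That overlap comes from KO tumour 1, where Osr1 rests on 44 UMIs, 12 of them from 1 cell. Cela1 (chromosome 15, 100674421 to 100687921, minus strand) stood at 59.9, 47.9, 26.4 and 22.5 CPM in score-high cells and at 29.0, 20.8, 8.414 and 7.999 CPM in the others. It was the score gene with the widest gap between the groups in either kind of cell.

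Tnnt2 did not follow the score. It stood at 457, 276, 153 and 211 CPM in score-high cells and at 432, 238, 184 and 254 CPM in the others, so it was slightly higher in score-high cells of the WT tumours and lower in those of the KO tumours. The working name of these cells lists Tnnt2 as a marker, and the data go against that in the KO tumours.

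Leukocytes served as a reading of free RNA. With each cell thinned to 5000 UMIs, a Cst6 UMI was found in 33.5%, 27.6%, 30.5% and 28.1% of the other non-cycling tumour cells and in 8.61%, 2.61%, 1.48% and 1.47% of leukocytes, in the order WT 1, WT 2, KO 1 and KO 2. Over all non-cycling tumour cells, with no cut on the score, the Cst6 shares were 42.9%, 33.2%, 31.4% and 29.3%, and both KO values lay below both WT values. Both sets of shares lay above those of leukocytes in each tumour. For Cela1 the shares were 13.1%, 8.84%, 3.295% and 3.76% of other tumour cells and 6.74%, 1.96%, 2.30% and 2.88% of leukocytes. In the KO tumours the Cela1 share of these cells lay near the leukocyte share, and the part of free RNA in it was not tested. Unthinned, Cela1 was found in 24.9% and 20.7% of other tumour cells of the KO tumours and in 3.76% and 3.10% of leukocytes, whose median depth was 6383 and 5153 UMIs.

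Each gene's height was also measured in UMIs that had not chosen the cells. When the UMIs of each cell were split at random into 2 parts of equal chance, the top 15% of cells being chosen on 1 part and measured on the other, the log2 ratio of chosen over remaining cells for Cst6 was 0.94, 1.26, 1.60 and 1.5 in the order WT 1, WT 2, KO 1 and KO 2. For Osr1 it was 0.55, 0.35, 0.83 and 1.59, and for Rbp2 0.28, 0.36, -0.10 and 0.68. For Cela1 it was 0.20, 0.12, 0.99 and 0.60. Measured in the UMIs that chose the cells, the Cst6 ratios had been 1.71, 2.03, 2.09 and 2.12, so part of each gene's height came from the counts used to choose the cells.

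When each gene was left out of the score and the cells were chosen by the other 3, the left-out gene differed less from the rest. The log2 ratio for Cst6 was 0.28, 0.19, 0.36 and -0.26, and for Rbp2 0.16, 0.21, -0.47 and 0.25. For Osr1 it was 0.33, 0.23, 0.53 and 0.74, and for Cela1 0.24, 0.43, 0.78 and 0.79. Osr1 and Cela1 were thus higher in all 4 tumours in cells chosen without them, by small amounts, while Cst6 and Rbp2 were each below 0 in 1 KO tumour. In KO tumours 1 and 2 Cela1 stood at 15.39 and 14.78 CPM in these chosen cells and at 8.515 and 8.139 CPM in the rest. Leukocytes of the KO tumours stood at 5.785 and 5.515 CPM. The KO values rest on 13 to 41 chosen cells per tumour and 15 to 61 UMIs of the left-out gene.

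**Figure D3:**
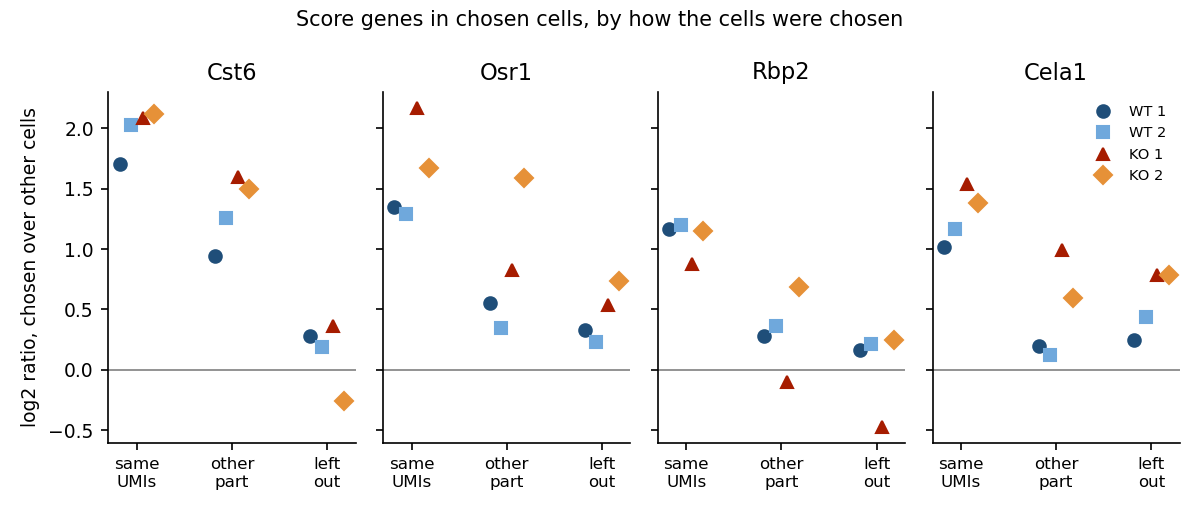
Log2 ratio of CPM in chosen over remaining non-cycling tumour cells for the 4 score genes, 1 point per tumour: cells chosen and measured on the same UMIs, chosen on 1 random part of the UMIs and measured on the other part, and chosen by the other 3 genes with the plotted gene left out. The points fall toward 0 from left to right for Cst6, where the left-out values lie between -0.26 and 0.36.

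The spread between cells was set against counting noise at each cell's depth. The variance of Cst6 UMIs across non-cycling tumour cells was 2.15, 2.10, 3.35 and 2.10 times the variance that counting alone gives. For Osr1 it was 1.36, 1.31, 1.92 and 1.91 times, and for Rbp2 1.21, 1.19, 1.44 and 1.40 times. Cela1 stood at 1.06, 1.05, 1.05 and 1.05 times, close to counting noise in each tumour. This ratio grows with the mean count of a gene, and Cst6 was the most abundant of the 4, so the values are not compared between genes.

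Few genes outside the rule set score-high cells apart. Of 6292 genes with at least 20 CPM in the higher kind of cell, 0 were at least 2-fold higher (0.0%) and 0 at least 2-fold lower (0.0%) in all 4 tumours. At 1.25-fold, a size chosen after the data were seen, 6 genes were higher in all 4 tumours (0.0954% of genes) and 17 lower (0.27%). The rule chose the cells on this contrast, so these counts are descriptive and carry no test. When score-high cells were chosen after thinning, 21 of the 23 kept their direction in every tumour. That choice used part of the same UMIs and many of the same cells, so it is not an independent check.

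The 6 higher genes included Crabp1, which encodes a retinoic acid-binding protein. It stood at 173, 130, 149 and 114 CPM in score-high cells and at 124, 87.6, 70.9 and 65.7 CPM in the others, and its level in score-high cells was above that of the others in each tumour. Klk8, a kallikrein serine protease gene, stood at 39.9, 25.4, 30.2 and 42.8 CPM against 28.1, 16.0, 12.4 and 16.0 CPM. Its ratio was larger in the KO tumours, where it rests on 16 and 40 UMIs. Amigo2, which encodes an adhesion protein, stood at 36.2, 32.6, 49.1 and 63.1 CPM against 23.7, 18.5, 33.6 and 30.7 CPM. Fam19a1, which encodes a secreted chemokine-like protein, had log2 ratios of 0.57, 0.65, 1.21 and 0.69. Gpnmb, which encodes a membrane glycoprotein, and Gfra2, which encodes the neurturin co-receptor, had log2 ratios of 0.33 to 0.72 over the 4 tumours.

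The 17 lower genes included collagen and other matrix genes and interferon-induced genes. Col3a1, a fibrillar collagen gene, stood at 926, 874, 245 and 168 CPM in score-high cells and at 1182, 1478, 682 and 403 CPM in the others. Fbn1, which encodes fibrillin-1, stood at 178, 187, 177 and 136 CPM against 226, 319, 264 and 231 CPM. Col5a2, Postn, Prelp and Igfbp7, which encode further matrix or secreted proteins, were lower as well, with log2 ratios between -0.41 and -2.54. Cxcl9, an interferon-induced T cell chemokine gene, stood at 37.2, 17.2, 58.5 and 101 CPM against 58.5, 73.1, 130 and 152 CPM. Complement C3, at 13.8, 22.4, 30.2 and 10.7 CPM against 21.5, 44.8, 66.6 and 18.8 CPM, and the interferon-induced gene Ifit3 were lower too. The others were Gm8995, Sema3c, Ramp2, Heg1, Apod, Cenpe, Gpx3 and Aldh3a1. Cenpe, a kinetochore motor gene outside the mitosis gate, stood at 52.0, 30.2, 39.6 and 50.3 CPM against 69.2, 46.6, 72.5 and 75.4 CPM.

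Markers of fibroblasts were lower in score-high cells as a list. The 10 markers summed to 1837, 1789, 1090 and 693 CPM in score-high cells and to 2305, 2588, 1795 and 1178 CPM in the others, with 0 of them at 0 in all score-high cells. Their part in the collagen differences was not tested. Mononuclear phagocyte markers summed to 226, 171, 236 and 271 CPM against 256, 102, 338 and 275 CPM in the others and 11000 to 16520 CPM in leukocytes. In WT tumour 2 the marker Lyz2 gave 117 of the 171 CPM, and 658 of its 857 UMIs came from 1 cell.

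**Figure D4:**
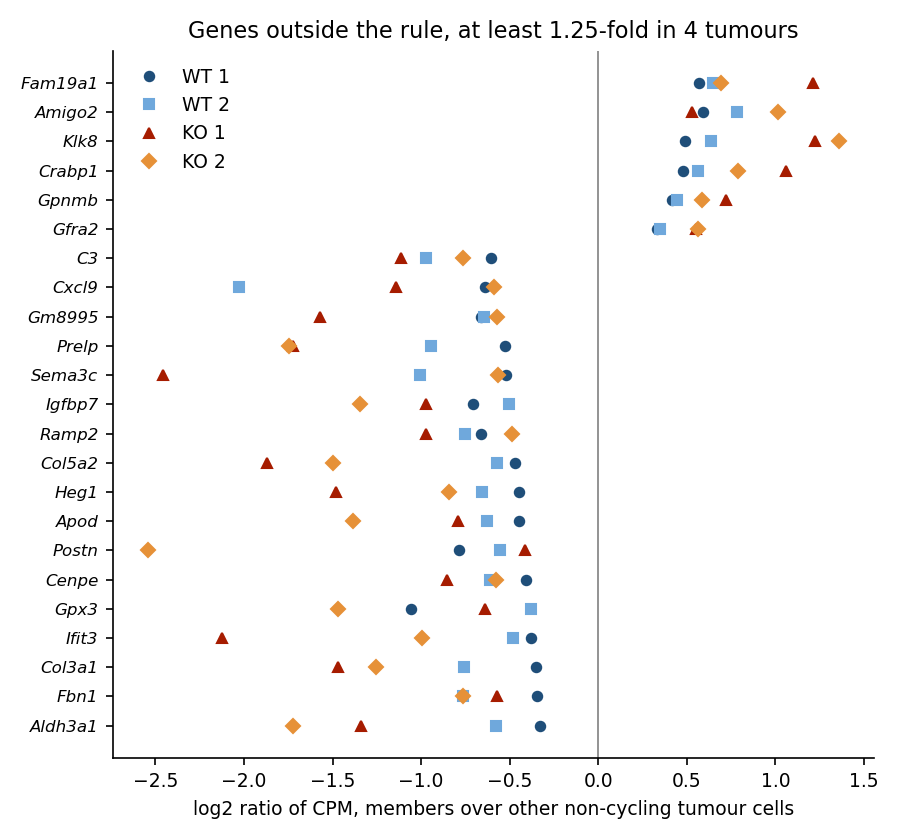
Log2 ratio of CPM in score-high over other non-cycling tumour cells for the 6 higher and 17 lower genes outside the rule, 1 point per tumour. All points of the upper 6 genes lie right of 0 and all points of the lower 17 lie left of it, as the choice of these genes sets.

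Gene lists placed these differences against the background of 10172 genes at 5 CPM or more, whose median log2 ratio of score-high over other cells was -0.03, -0.03, -0.03 and -0.05. Interferon-gamma response genes lay below that background in both WT tumours and not in KO tumour 2. Their median was -0.42, -0.60, -0.23 and 0.31 in the order WT 1, WT 2, KO 1 and KO 2. Of the 23 genes 0 were higher in score-high cells of WT tumour 1, 0 in WT tumour 2, 6 in KO tumour 1 and 22 in KO tumour 2. Iigp1, an interferon-induced GTPase gene, stood at 58.5, 189, 325 and 721 CPM in score-high cells against 94.6, 332, 652 and 534 CPM in the others. MHC class I and peptide loading genes had medians of -0.23, -0.26, -0.03 and 0.06. Mesenchymal and matrix genes had medians of -0.13, -0.17, -0.54 and -0.46, and 13 of 20 were lower in all 4 tumours, against 13.7% of all genes.

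Lists close to the score genes in function had medians between -0.12 and 0.17 in every tumour. Retinoid handling genes, without the score and gate genes, had medians of -0.04, 0.06, -0.12 and -0.03, and 2 of 13 were higher in all 4 tumours. Cystatins and cysteine proteases had medians of 0.01, 0.05, 0.02 and -0.10, and 2 of 11 were higher in all 4 tumours. Elastases and serine proteases had medians of 0.00, 0.10, 0.11 and 0.05, and 3 of 7 were higher in all 4 tumours. Odd-skipped and mesoderm transcription factors had medians of 0.08, 0.04, 0.17 and 0.04, and 4 of 8 were higher in all 4 tumours. Of all genes 6.59% were. Dkk2, which encodes a Wnt antagonist, was chosen for mention after its values were seen and stood at 159, 173, 151 and 121 CPM in score-high cells against 127, 111, 72.5 and 74.8 CPM.

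Score-high cells overlapped little with cells high in Lbp, Prelp and Aldh3a1 in the WT tumours. Of score-high cells 7.86% and 8.17% in WT tumours 1 and 2 were also in the top 15% by those 3 genes, against 15.6% and 22.9% of other cells. In the KO tumours the overlap was 2 of 19 and 1 of 36 cells. For cells high in Gja4, Nppb and Il11 the shares were 7.22% and 7.17% of score-high cells against 8.53% and 7.99% of others in the WT tumours. In the KO tumours they were 26.3% and 55.6% against 42.4% and 46.9%. Over the 4 tumours pooled the overlap of score-high cells was 143 cells with the first group and 152 with the second, or 7.87% and 8.37% of either list.

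Over all non-cycling tumour cells, without a cut on the score, the score genes were lower in the KO tumours. Of 16834 genes 5.42% fell and 5.35% rose in these cells (edgeR's quasi-likelihood test, adjusted p under 0.05). Cela1 stood at 35.9, 24.2, 8.75 and 8.30 CPM in the order WT 1, WT 2, KO 1 and KO 2 and fell (log2 fold change -1.90, standard error 0.21, edgeR adjusted p = 0.0127). Osr1 fell from 40.0 and 33.4 CPM to 18.9 and 15.8 CPM (-1.17, standard error 0.14, edgeR adjusted p = 0.0146). The groups did not overlap for either gene. Cela1 stood at 14.0, 5.58, 5.79 and 5.52 CPM in leukocytes. Its KO values lie near these, the part of free RNA was not tested, and the size of its fall is uncertain.

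Rbp2 fell from 78.8 and 68.5 to 47.6 and 51.9 CPM (log2 fold change -0.65, standard error 0.13, edgeR adjusted p = 0.0333), and this call was lost without KO tumour 1 (adjusted p = 0.136) or without KO tumour 2 (0.0576). Cst6 stood at 140 and 106 CPM in the WT tumours and at 89.7 and 80.0 CPM in the KO tumours (-0.62, standard error 0.16, edgeR adjusted p = 0.053). It passed with DESeq2 (adjusted p = 0.00528) and without WT tumour 2 (edgeR adjusted p = 0.00529). Tnnt2 stood at 437, 243, 183 and 253 CPM with overlapping groups (edgeR adjusted p = 0.167). The score genes were chosen with earlier results of these tumours known, so these falls are not independent evidence.

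Within score-high cells the largest rises in the KO tumours included the chemokine gene Cxcl10 and the interferon-induced gene Gbp4, and the largest falls included the matrix genes Dcn and Col3a1. Of 11391 genes tested on the summed UMIs of 4 tumours, 208 rose (1.83%) and 92 fell (0.808%) with edgeR. The KO sums come from 19 and 36 cells with 530123 and 935200 UMIs, against 16875534 and 7329350 UMIs in the WT tumours. In the other non-cycling tumour cells 760 genes rose (4.56%) and 762 fell (4.57%) of 16671. Of the 208 rises 151 were also called in the other cells, which is 72.6% of the first list and 19.9% of the second. Of the 92 falls 76 were, or 82.6% and 9.97%. In simulated counts of this size edgeR recovered 59.7% of 2-fold and 98.5% of 4-fold changes set in genes of at least 10 CPM in score-high cells. Each simulated gene had the spread typical of its level and none of its own, so recovery in the data may be lower. The median log2 fold change of all genes tested was -0.01.

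Cxcl10, which encodes a chemokine that draws T cells through CXCR3, stood at 120 and 124 CPM in the WT score-high cells and at 970 and 1173 CPM in the KO score-high cells. It rose by a log2 fold change of 3.08 (standard error 0.19, edgeR adjusted p = 8.42e-07). A UMI was found in 18 of 19 and 31 of 36 KO cells and in 410 of 1260 and 142 of 502 WT cells. The KO cells held more UMIs each, and the part of depth was not tested. The cell with the most Cxcl10 UMIs held 160 of 514 in KO tumour 1 and 176 of 1097 in KO tumour 2. Cxcl11, which the annotation of this C57BL/6 reference lists as a polymorphic pseudogene, went from 2.90 and 2.32 to 15.1 and 41.7 CPM (3.47, standard error 0.44, edgeR adjusted p = 0.000736). The groups were apart for both genes, while Cxcl11 rests on 8 and 39 UMIs in the KO tumours.

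Gbp4, an interferon-induced GTPase gene, went from 7.17 and 16.9 to 64.1 and 110 CPM (log2 fold change 2.96). Serpina3f, a serine protease inhibitor gene of a family of close copies, went from 5.45 and 16.1 to 58.5 and 138 CPM (3.35). Slfn2, a Schlafen gene of immune cells, went from 7.53 and 5.73 to 30.2 and 54.5 CPM (2.66), and Apol6 from 2.61 and 7.64 to 20.8 and 24.6 CPM (2.25). Gm4841, an interferon-induced GTPase gene of a family of close copies, went from 2.96 and 10.5 to 28.3 and 124 CPM (3.78). Of its 116 UMIs in KO tumour 2, 87 came from 1 cell. In KO tumour 1 the cell with the most UMIs of the gene held 15 of 31 for Serpina3f and 8 of 11 for Apol6. For Gm4841 it was 7 of 15 and for Gbp4 12 of 34.

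Gja4, which encodes the gap junction protein connexin 37, and Nppb, which encodes the natriuretic peptide BNP, also rose. Nppb went from 36.7 and 27.6 to 202 and 186 CPM (log2 fold change 2.51, standard error 0.18, edgeR adjusted p = 3.73e-06), although 61.7% of its UMIs in KO tumour 1 came from 1 cell. Gja4 went from 7.82 and 16.5 to 37.7 and 84.5 CPM (2.46), and 15 of its 20 UMIs in KO tumour 1 came from 1 cell. Fst, which encodes the activin-binding protein follistatin, went from 3.67 and 2.46 to 11.3 and 29.9 CPM (2.76). The uncharacterised transcripts Gm42679 (2.59) and 7330423F06Rik (2.54) completed the 12 largest rises. For Gm42679, 14 of the 26 UMIs in KO tumour 1 came from 1 cell.

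Dcn, which encodes the proteoglycan decorin, fell from 286 and 305 to 26.4 and 44.9 CPM in score-high cells (log2 fold change -3.03, standard error 0.23, edgeR adjusted p = 5.87e-06). Col3a1 fell from 926 and 874 to 245 and 168 CPM (-2.21, standard error 0.20, edgeR adjusted p = 2.28e-05), and the groups were apart for both. Both are fibroblast markers, and the 10 on that list, with both included, summed to 1837, 1789, 1090 and 693 CPM in score-high cells. The markers did not all fall together. In the order WT 1, WT 2, KO 1 and KO 2, Col6a3 stood at 234, 269, 428 and 259 CPM (0.36, edgeR adjusted p = 0.375). Col1a2 stood at 286, 260, 275 and 173 CPM (-0.38, edgeR adjusted p = 0.327). Of the 9 markers tested 2 were called lower, against 0.808% of all genes. Their part in these falls was not tested. Aldh3a1, an aldehyde dehydrogenase gene, fell from 26.0 and 23.1 to 5.66 and 2.14 CPM (-2.89), where the KO values are 3 and 2 UMIs.

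Medag, which is known from fat cell differentiation, fell from 48.8 and 58.7 to 13.2 and 10.7 CPM (log2 fold change -2.25), and Col18a1, which encodes the endostatin-bearing collagen, from 80.7 and 49.4 to 17.0 and 19.3 CPM (-1.89). Ankrd37, a hypoxia-induced gene, fell from 66.5 and 43.0 to 20.8 and 8.55 CPM (-2.13). Hist1h2bc, a histone gene (-1.87), Mxd4, a Max-binding repressor gene (-1.79), Narf (-2.33), Plekha6 (-2.14) and the mitochondrial tRNA genes mt-Ta (-2.49) and mt-Tc (-2.13) completed the 12 largest falls. Leaving out KO tumour 2 ended the call for 12 of these 24 genes, with no change of direction: Cxcl11 (adjusted p = 0.122), Serpina3f (0.0505), Gm4841 (0.219), Apol6 (0.234), Fst (0.331), Gja4 (0.182), Aldh3a1 (0.0642), Ankrd37 (0.105), Mxd4 (0.0568), Narf (0.183), Plekha6 (0.122) and mt-Ta (0.131). The total of genes called was then 125. Without WT tumour 1 the call was lost for Apol6 (0.103), and with DESeq2 for Gm4841 (0.147). With score-high cells cut at the top 10%, 10 of the 24 calls were lost: Gm42679 (0.0994), mt-Tc (0.0771), Col18a1 (0.158), Gm4841 (0.176), Apol6 (0.118), Aldh3a1 (0.161), Mxd4 (0.0944), Narf (0.345), Plekha6 (0.181) and mt-Ta (0.298).

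**Figure D5:**
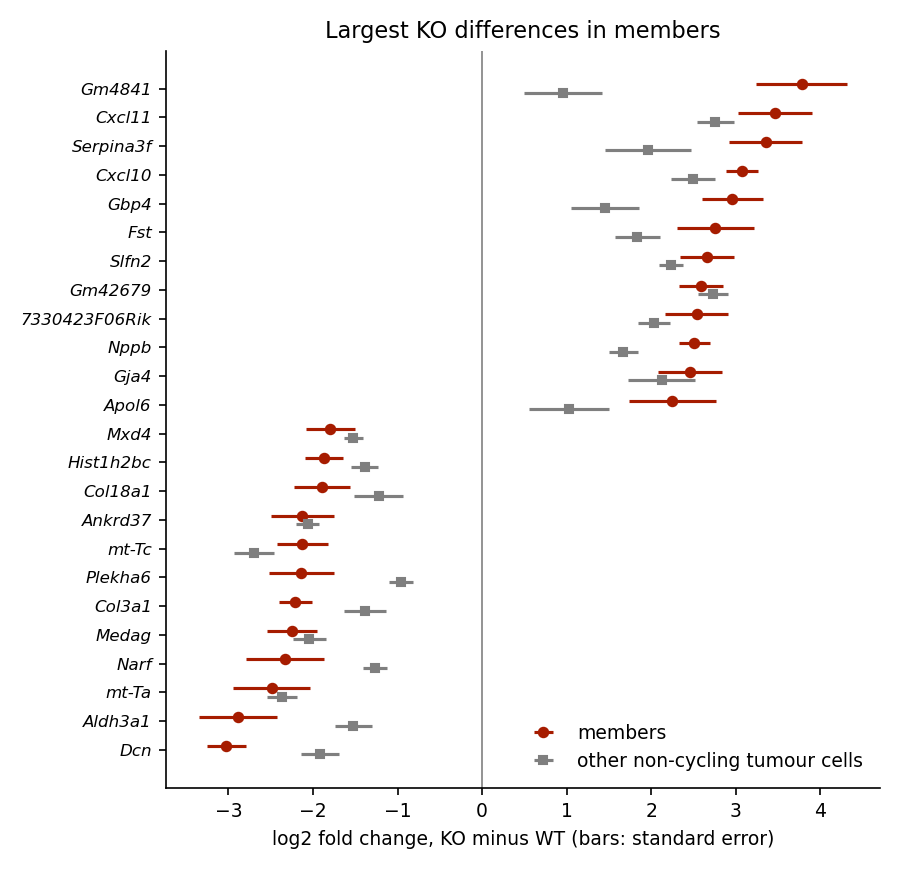
Log2 fold change, KO minus WT, of the 12 largest rises and 12 largest falls in score-high cells (circles) and the same genes in other non-cycling tumour cells (squares), with standard errors from edgeR as bars. The signs are the same in both kinds of cell for all 24 genes.

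Counted by list, most of the interferon-gamma response genes tested rose in score-high cells. Of 24 tested 16 rose and 0 fell, with a median log2 fold change of 1.72, against 1.83% of all genes. In the other cells 6 of 25 rose, with a median of 1.09, against 4.56% of all genes. Socs1, a feedback inhibitor of cytokine signalling, went from 23.8 and 27.8 to 126 and 121 CPM in score-high cells (2.21, edgeR adjusted p = 8.74e-06). Igtp, an interferon-induced GTPase gene, went from 30.2 and 103 to 296 and 304 CPM (2.15, edgeR adjusted p = 0.00693). In the other cells the log2 fold change was 1.685 for Socs1 (edgeR adjusted p = 0.0125) and 1.29 for Igtp (edgeR adjusted p = 0.127). The WT tumours differed from each other in Igtp by more than the KO tumours did.

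Of the type I interferon genes 10 of 25 rose, with Oas3 at 1.83 and Rtp4 at 1.62 on the log2 scale. Of all genes tested in score-high cells 1.83% rose. Of the MHC class I and peptide loading genes 7 of 19 rose, with the peptide transporter gene Tap1 going from 51.1 and 82.8 to 219 and 230 CPM. Of the chemoattractants 4 of 13 rose, including Cxcl9 (1.51) and Cxcl1 (1.36). Of the NF-kappaB feedback genes 4 of 16 did, including Nfkbia (1.26) and Tnfaip3 (1.25). In the other cells 7 of 28 type I interferon genes and 5 of 20 MHC class I and peptide loading genes rose. There 6 of 17 chemoattractants and 8 of 17 NF-kappaB feedback genes rose too, against 4.56% of all genes. Ptprc, the gate's leukocyte gene, was absent from 97.9% and 98.8% of score-high cells in the WT tumours and from 79.0% and 77.8% in the KO tumours, whose cells held more UMIs. T and NK markers summed to 10.1, 5.19, 26.4 and 33.2 CPM in score-high cells and to 646, 1299, 2377 and 2476 CPM in leukocytes. Their part in the interferon and chemokine rises was not tested.

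S phase and mitosis genes outside the gate rose in 5 of 26 cases in score-high cells, against 1.83% of all genes. Among them were Cdc6 (1.35), Mcm5 (0.85) and Cdk1 (0.93). In the other non-cycling tumour cells 14 of 26 rose, against 4.56% of all genes. Cdc6 stood at 21.1, 28.8, 106 and 37.4 CPM in score-high cells, in the order WT 1, WT 2, KO 1 and KO 2. The share of all tumour cells past the mitosis gate was 30.0%, 30.7%, 42.0% and 41.8% in the order WT 1, WT 2, KO 1 and KO 2. Of the TGF-beta and YAP targets 3 of 15 rose, Fst, Id1 (1.12) and Smad7 (0.83). Of the ribosome biogenesis and Myc targets 3 of 20 rose, including Odc1 (0.90), which encodes the first enzyme of polyamine synthesis. The p53 target Cdkn1a, which encodes the inhibitor p21, rose from 110 and 109 to 234 and 240 CPM (1.05), as 1 of 14 genes on its list. In the other cells 3 of 18 TGF-beta and YAP targets and 5 of 20 ribosome biogenesis and Myc targets rose. Of the p53 targets 3 of 16 rose there.

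Falls were found on fewer lists. Of all genes tested in score-high cells 0.808% fell and 1.83% rose. Of the glycolysis and hypoxia genes 3 of 23 fell, Ankrd37, Bnip3 (-1.76) and Bnip3l (-1.11), the latter a pair of mitophagy receptor genes, and 1 rose, the hexokinase gene Hk2 (0.85). Of the mesenchymal and matrix genes 3 of 20 fell, the osteopontin gene Spp1 (-1.51), the fibronectin gene Fn1 (-1.46) and the repressor gene Snai2 (-1.19). Of the cholesterol and fatty acid genes 2 of 19 fell, Insig1 (-0.996) and Scd2 (-0.78). In the other cells 6 of 24 glycolysis and hypoxia genes and 3 of 22 mesenchymal and matrix genes fell. Of the cholesterol and fatty acid genes 1 of 19 fell there, against 4.57% of all genes. Of retinoid handling genes 0 of 13 passed in either direction, with a median of -0.32, of cystatins and cysteine proteases 0 of 11, of odd-skipped and mesoderm factors 0 of 8 and of hnRNP genes 0 of 25. Over all genes 2012 had an unadjusted p under 0.05 in this edgeR fit.

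Hnrnpa2b1 itself stood at 481 and 483 CPM in score-high cells of the WT tumours and at 270 and 345 CPM in the KO score-high cells (log2 fold change -0.69, standard error 0.18, edgeR adjusted p = 0.0623). The groups did not overlap, and 1 cell held 110 of the 323 UMIs in KO tumour 2. In the other cells the log2 fold change was -0.69 as well (edgeR adjusted p = 0.032).

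Whether the KO difference itself differed between score-high and other cells was tested in 1 fit over 8 sums with the tumour as a block. The KO difference was larger for 18 genes (0.116% of 15478) and smaller or more negative for 10 (0.0646%) with edgeR. The count was 0 with DESeq2 (284 genes at an unadjusted p under 0.05) and 0 when score-high cells were chosen after thinning (655 at an unadjusted p under 0.05). It ranged from 6, without WT tumour 2, to 94, without KO tumour 1. It was 12 without WT tumour 1 and 55 without KO tumour 2. Several of the 18 were interferon-induced GTPase genes, among them Gbp4, with a difference of 1.34 on the log2 scale (standard error 0.19), and Igtp, with 0.77 (standard error 0.13). For Gbp4 the difference was 0.60 without KO tumour 2 (edgeR adjusted p = 0.663). For Igtp it was 0.76 without WT tumour 1 (edgeR adjusted p = 0.124). Col3a1 (-0.90, standard error 0.12) and Dcn (-1.12, standard error 0.20) fell further in score-high cells. Without WT tumour 1 the edgeR adjusted p was 0.334 for Col3a1 and 0.113 for Dcn, and for Dcn it was 0.281 without KO tumour 1.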

How the data were processed

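The deposited files hold raw UMI counts per gene and barcode from 10x Genomics libraries of 4 tumours. Per the labels' protocols the authors aligned reads to mm10 with Cell Ranger 5.0.1, while the matrix header names Cell Ranger 6.1.2; the submitters' processing notes list Seurat 5.1.0 with no role. Cells needed 300 genes, 2000 UMIs and no more than 20% of UMIs from mitochondrial genes, which left 36571 barcodes. The score-high cells, gene lists and rules were chosen with earlier results of these data known. Doublets were scored with Scrublet in scanpy 1.11.5 (an expected rate set from the number of barcodes) and kept, except in 1 alternative. Leukocytes had Ptprc of at least 1 and tumour gate genes below 2 per 10000. Counts were summed per tumour and kind of cell and tested with edgeR 4.0.16 (TMM, filterByExpr, glmQLFit, glmQLFTest) in R 4.3.3. P-values are two-sided, Benjamini-Hochberg adjusted over all genes tested, with a threshold of 0.05. DESeq2 1.42.0 was an alternative. Log2 ratios between kinds of cell use CPM with a pseudocount of 1 CPM. All other CPM values are without TMM. Coordinates are from GENCODE release 21 of the mouse, on GRCm38. Named genes were those of the rule, those past the size used in all 4 tumours, the 12 largest rises and 12 largest falls in score-high cells among genes past the threshold, with groups apart and at least 20 CPM in the higher group, the 6 with the smallest p on each side for the difference between kinds of cell, and up to 4 per list. The edgeR script was tested on simulated counts. Same-numbered tumours did not deviate together (r = -0.07 in score-high and -0.12 in other cells).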

Additional observations from a re-analysis of the deposited data

Results flagged for a closer look

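For 12 genes the KO difference in score-high cells departed from that in the other non-cycling tumour cells, by edgeR's quasi-likelihood test of the difference over 8 sums with the tumour as a block. The values below are KO difference in score-high cells minus KO difference in others, on the log2 scale. None of the 12 passed with DESeq2 or with score-high cells chosen after thinning to 5000 UMIs.

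The difference was positive for 6 genes that are interferon-induced or lie in such families. It was 2.60 for Gm4841, 2.73 for F830016B08Rik, 1.34 for Gbp4, 1.18 for Serpina3f, 0.77 for Igtp and 0.91 for Gm12250. In KO tumour 2 a single cell held 87 of the 116 UMIs of Gm4841 and 70 of the 92 UMIs of F830016B08Rik, and without that tumour the difference for F830016B08Rik was -0.82. Without KO tumour 2 it was 0.16 for Serpina3f and 0.17 for Gm12250, and neither passed. Gm4841 and F830016B08Rik are close copies, so reads may be split between them.

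The difference was negative for 6 genes. It was -0.90 for Col3a1, -1.12 for Dcn, -0.93 for Col1a1, -0.83 for Lyz2, -3.18 for Meg3 and -1.07 for Gdf15. Col3a1, Dcn and Col1a1 are fibroblast markers and Lyz2 a phagocyte marker. With cells of high doublet score removed the difference was 0.36 for Col1a1 and 0.27 for Lyz2, and it was -0.77 for Dcn. In WT tumour 2 a single cell held 658 of the 857 Lyz2 UMIs of score-high cells. Meg3 had 1 UMI in score-high cells of each KO tumour. Gdf15 stood at 13.2 and 27.8 CPM in score-high cells of the KO tumours and at 49.7 and 36.1 CPM in the others.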

How the results depend on the processing

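Both WT shares of score-high cells lay above both KO shares under every choice tried; the KO minus WT difference was -14.6 percentage points and ranged from -19.8 to -9.44 when tumours were left out in turn, and the ratio of 6.89 was 2.85 after thinning and 11.1 at the top 10%. The 300 genes called in score-high cells were 199 with DESeq2, 611 without the filter on low counts (48.1% of them rises, against 69.3%), 869 when cells were chosen after thinning, 58 at the top 10%, 840 at the top 20%, and 125 to 366 with 1 tumour left out. The 1522 called in other cells were 2372 with DESeq2, 3670 without the filter, and 757 to 2599 with 1 tumour left out. The 1813 called in all non-cycling cells were 4090 without the filter and 606 to 3423 with 1 tumour left out. Tumour numbers are not shown to pair the tumours; with the replicate block the counts were 351, 427 and 1208, and with the crossed pairing, added after the data were seen, 3691 and 4034 in other and all cells. The 28 calls of the difference were 0 with DESeq2, 0 after thinning, and 6 to 94 with 1 tumour left out. The count of genes at least 2-fold apart was 1 at the top 10%, 0 to 2 with 1 tumour left out, and 23 at 1.25-fold. Directions turned for Cst6 in score-high cells (-0.45 after thinning, against 0.09), Lyz2 (0.04 without WT tumour 2, where -1.82 was the lowest with 1 tumour left out, 0.35 after thinning and 0.27 without doublets), F830016B08Rik (-0.82 without KO tumour 2, to 3.44 without KO tumour 1), Meg3 (1.47 after thinning) and Col1a1 (0.36 without doublets); the causes were not tested. The 19 and 36 KO cells limit what can be read there. In simulated counts 16.4% of 1.5-fold changes in genes of at least 10 CPM were recovered in score-high cells and 47.8% in the others.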
